A study of Mus musculus with 6 samples.

Results

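Tuft cell genes were followed in RNA sequencing read counts of Lgr5-GFP-positive cells sorted from mouse small intestinal organoids. They are 9 genes chosen by symbol from general knowledge of the cell type, with earlier results of these data already known. The genes are *Dclk1*, *Trpm5*, *Pou2f3*, *Avil*, *Gfi1b*, *Sh2d6*, *Il25*, *Alox5ap* and *Ltc4s*, and all 9 were found among the 56884 genes of the count tables. Organoids are epithelial cultures grown from intestinal tissue. Those used here carried 2 floxed copies of *Ythdf2*, a reader of m6A-modified RNA, and CreERT2, whose recombinase works once it is bound by 4-hydroxytamoxifen (4-OHT). The villin promoter, active throughout the intestinal epithelium, drove 1 source of CreERT2, and the *Lgr5* allele that makes EGFP was another, so tuft cells of the culture carried it as well. The cells were sorted 4 or 6 days after the addition of 0.5 µM 4-OHT or of ethanol (EtOH), its vehicle, and the EtOH cultures carried the same alleles. At day 6 each label had 2 libraries, and at day 4 it had 1. Neither the number of mice nor whether the replicates were separate cultures is given in the labels, so p-values measure only the spread between these libraries, which may be technical.

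Tuft cells are rare chemosensory cells of the intestinal epithelium that detect luminal metabolites and parasites. The transcription factor Pou2f3 is required to make them, and their taste-like signalling runs from a G protein through phospholipase C and released calcium to the cation channel Trpm5. Their outputs include the cytokine IL-25, cysteinyl leukotrienes, prostaglandins and acetylcholine, which act on immune cells and neurons. *Lgr5* marks intestinal stem cells, from which tuft cells arise, and GFP made in a stem cell can persist for some time in its progeny.

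Library totals ran from 14345379 to 21461835 gene counts, so that a level of 1 CPM (a gene's counts scaled by the library total) stood for 14.3 to 21.5 reads. Replicate pairs of day 6 differed by more than sampling noise, with a chi-square per degree of freedom of 33.2 (EtOH) and 22.9 (labelled 4-OHT), and were kept apart. *Ythdf2*, the floxed gene, was read as a check of the labels and went against them. It had 1563 and 1312 counts with EtOH and 4463 and 3816 in the libraries labelled 4-OHT at day 6, and 1483 against 2466 at day 4. It rose at day 6 by 1.37 on the log2 scale (SE 0.16; Benjamini-Hochberg adjusted p 0.0018, edgeR quasi-likelihood test). *Lgr5*, whose allele carries the sorted EGFP, had 4035 to 7182 counts over the 6 libraries and a day 6 value of -0.45 (SE 0.19; adjusted p 0.413, edgeR). Counts per gene do not show whether the floxed part was present. Every direction below is therefore that of libraries labelled 4-OHT relative to libraries labelled EtOH.

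Sequence upstream of the start is shown for *Trpm5*, the gene of the set with the highest mean CPM, and for *Avil*, the only one of the set with a motif match in its window. Pou2f3 belongs to the POU family, whose DNA-binding domain recognises the octamer ATGCAAAT. The windows are the 250 bases before the RefSeq start, 5′ to 3′ on the gene's own strand, and their GRCm39 positions come from a single exact match each. That of *Trpm5* is chr7:142648380-142648629 (minus strand) and that of *Avil* is chr10:126836328-126836577 (plus strand). Capitals mark the first 7 bases of the octamer, ATGCAAA, on either strand.
Trpm5: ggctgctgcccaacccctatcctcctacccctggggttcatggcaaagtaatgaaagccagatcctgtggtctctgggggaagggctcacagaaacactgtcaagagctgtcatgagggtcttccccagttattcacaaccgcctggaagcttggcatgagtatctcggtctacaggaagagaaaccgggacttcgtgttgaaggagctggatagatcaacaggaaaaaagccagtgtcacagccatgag
Avil: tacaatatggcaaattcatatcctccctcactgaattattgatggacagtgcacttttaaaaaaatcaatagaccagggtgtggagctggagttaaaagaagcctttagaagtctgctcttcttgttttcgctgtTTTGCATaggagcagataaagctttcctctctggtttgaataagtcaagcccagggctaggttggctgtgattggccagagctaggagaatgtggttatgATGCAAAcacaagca
Both matches of *Avil* lie within the window, beginning 115 bases before the start on the opposite strand and 15 bases before it on the gene's strand. RefSeq promoters were found for 6 of the 9 genes, in 7 windows. The 7-base motif was present in 1 of these 7 windows and in 4.12% of all 32851 promoter windows of that length. The full octamer, which contains it, was present in 0 of the 7 and in 1.6% of all.

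Detection divided the 9 genes into 3 groups. *Trpm5*, *Pou2f3*, *Dclk1*, *Avil* and *Sh2d6* reached at least 10 counts in all 6 libraries, except for *Sh2d6*, which had 9 in the day 4 library labelled 4-OHT. *Gfi1b* and *Ltc4s* had 0 to 8 counts. *Il25* and *Alox5ap* had 0 counts in every library. Together the 9 genes took 711 and 352 counts in the day 6 EtOH libraries, or 37.2 and 20.5 CPM without TMM scaling. They took 248 and 182 counts (11.6 and 9.50 CPM) in the day 6 libraries labelled 4-OHT. At day 4 they took 222 counts with EtOH and 112 in the library labelled 4-OHT, or 11.5 and 7.81 CPM. The 2 day 6 EtOH libraries thus stood above the other 4, which lay between 7.81 and 11.6 CPM. At day 6 the mean of each of the 5 detected genes was lower in the libraries labelled 4-OHT, from *Dclk1* with 5.01 against 1.04 CPM to *Avil* with 4.26 against 2.17 CPM. Of these differences that of *Dclk1* passed the edgeR test over all genes at day 6, and that of *Pou2f3* passed it over both days.

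**Figure D1:**
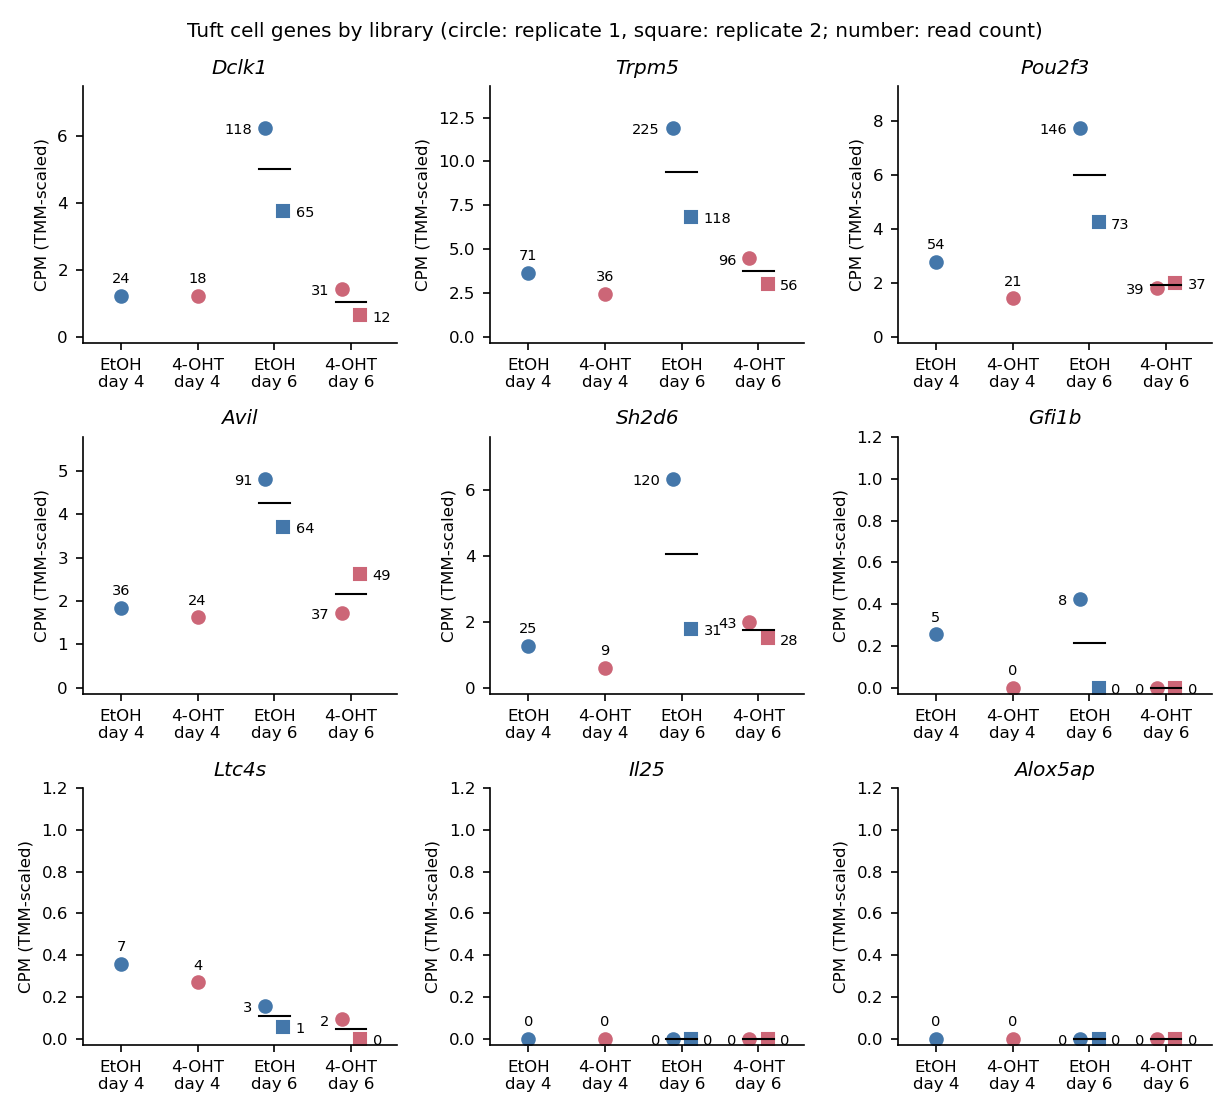
Level of each of the 9 tuft cell genes in each library, as TMM-scaled CPM on a linear axis from 0, with the read count printed beside each point and a black line at the mean of the 2 libraries of a day 6 group. The 5 genes of the upper and middle rows that were detected reach their highest level in EtOH replicate 1 of day 6, and *Il25* and *Alox5ap* lie at 0 throughout.

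Pou2f3 is the lineage's transcription factor. *Pou2f3* (ENSMUSG00000032015; chromosome 9, 43035228 to 43121666, minus strand, GRCm39) was counted 146 and 73 times with EtOH at day 6, against 39 and 37 times under the 4-OHT label. At day 4 the counts were 54 (EtOH) and 21 (labelled 4-OHT). Both day 6 libraries labelled 4-OHT lay below both EtOH libraries, and the day 4 pair had the same order. The day 6 mean of CPM, scaled by edgeR's TMM factors, was 5.98 ± 2.48 (EtOH) and 1.90 ± 0.118 (labelled 4-OHT; SD, n = 2 each). The corresponding log2 fold change was -1.67 (SE 0.40), which missed the threshold of 0.05 over all genes (edgeR adjusted p 0.0718). It passed with DESeq2 (adjusted p 0.0225) and not with limma-voom (0.128). Without EtOH replicate 1 the day 6 value was -1.16. In the fit of both days together, which has a term for day, *Pou2f3* fell by 1.49 on the log2 scale (SE 0.34; edgeR adjusted p 0.0368). The call over both days was lost when any 1 library other than EtOH replicate 2 of day 6 was left out (edgeR adjusted p 0.0683 to 0.162), with limma-voom (0.0605) and without the day term (0.124). No exon base of *Pou2f3* overlaps another gene.

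Gfi1b is a zinc-finger repressor found in tuft cells and in blood cell lineages. *Gfi1b* (ENSMUSG00000026815; chromosome 2, 28499462 to 28511994) had 8 counts in EtOH replicate 1 of day 6 and 5 in the day 4 EtOH library, and 0 in the other 4. The exact 95% Poisson interval of the 8 counts is 3.45 to 15.8. A count of 0 allows up to 3 counts, or 0.140 to 0.209 CPM in the libraries with none. As 1 EtOH library of day 6 was also at 0, no fold change is given for *Gfi1b*. It did not pass the filter on low counts, and without that filter it was not called at day 6 (edgeR adjusted p 0.796) or over both days (0.483).

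Trpm5 is the calcium-activated cation channel that ends the chemosensory cascade. *Trpm5* (ENSMUSG00000009246; chromosome 7, 142622890 to 142648379, minus strand) had the highest counts of the set, 225 and 118 with EtOH and 96 and 56 in the libraries labelled 4-OHT at day 6. At day 4 it had 71 (EtOH) and 36 (labelled 4-OHT). The day 6 groups did not overlap, at 9.38 ± 3.59 and 3.73 ± 1.04 CPM (SD, n = 2 each). Neither its day 6 log2 fold change, -1.33 (SE 0.36; edgeR adjusted p 0.12), nor that over both days, -1.14 (SE 0.31; 0.083), passed. DESeq2 called both, with adjusted p of 0.039 and 0.0294, and limma-voom called neither (0.167 and 0.1). Without EtOH replicate 1 the day 6 value of *Trpm5* was -0.87. Of the exon bases of *Trpm5*, 4.9% overlap *Tssc4* on the other strand.

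Dclk1 is a microtubule-associated kinase widely used as a tuft cell marker. *Dclk1* (ENSMUSG00000027797; chromosome 3, 55149618 to 55446493, plus strand) had 118 and 65 counts with EtOH and 31 and 12 in the libraries labelled 4-OHT at day 6, and 24 against 18 at day 4. The day 6 groups were apart, at 5.01 ± 1.75 and 1.04 ± 0.565 CPM (SD, n = 2 each). At day 4 the levels were 1.23 CPM (EtOH) and 1.22 CPM (labelled 4-OHT). *Dclk1* was the only one of the 9 genes whose day 6 fall passed over all genes, at -2.24 on the log2 scale (SE 0.48; edgeR adjusted p 0.0388). That call lies near the threshold. It was lost under limma-voom (0.067), under the older form of edgeR's quasi-likelihood fit (0.0548), and without EtOH replicate 1 (0.324), EtOH replicate 2 (0.0703) or replicate 2 labelled 4-OHT (0.0565). The log2 value itself ran from -2.96 to -1.81 over all alternatives run. Over both days *Dclk1* had -1.74 (SE 0.48; edgeR adjusted p 0.0859).

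Avil is advillin, an actin-bundling protein of the tuft cell's apical bundle. *Avil* (ENSMUSG00000025432; chromosome 10, 126836578 to 126856863, plus strand) had 91 and 64 counts with EtOH and 37 and 49 in the libraries labelled 4-OHT at day 6, and 36 against 24 at day 4. The day 6 groups did not overlap, at 4.26 ± 0.784 and 2.17 ± 0.639 CPM (SD, n = 2 each). *Avil* did not pass at day 6, at -0.99 on the log2 scale (SE 0.39; edgeR adjusted p 0.367), or over both days, at -0.80 (SE 0.32; 0.254).

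Sh2d6 is an SH2-domain protein of the tuft cell signature. *Sh2d6* (ENSMUSG00000052631; chromosome 6, 72490624 to 72498690, minus strand) had 120 and 31 counts with EtOH and 43 and 28 in the libraries labelled 4-OHT at day 6, and 25 against 9 at day 4. EtOH replicate 1 stood alone at 6.35 CPM. EtOH replicate 2, at 1.80 CPM, lay between the libraries labelled 4-OHT at 2.0 and 1.5 CPM, so that the groups overlapped. The day 6 log2 fold change of -1.23 (SE 0.56; adjusted p 0.492 by edgeR) became -0.03 without EtOH replicate 1. *Sh2d6* is the gene of the set whose day 6 value rested on 1 library.

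Of the genes for the tuft cell's secreted and lipid effectors, *Il25*, *Alox5ap* and *Ltc4s* could hardly be read. *Il25* (ENSMUSG00000040770; chromosome 14, 55170152 to 55173294) encodes the cytokine IL-25, and *Alox5ap* (ENSMUSG00000060063; chromosome 5, 149196003 to 149227762) the protein that presents arachidonic acid to 5-lipoxygenase. Both were at 0 in all 6 libraries, which allows up to 0.140 to 0.209 CPM per library and 0.0271 CPM over the 110660199 counts together. *Ltc4s* (ENSMUSG00000020377; chromosome 11, 50127288 to 50129443) encodes leukotriene C4 synthase, and it had 3 and 1 counts with EtOH and 2 and 0 in the libraries labelled 4-OHT at day 6. At day 4 *Ltc4s* had 7 (EtOH) and 4 (labelled 4-OHT), and the ratio of 0.771 had an exact 95% interval of 0.166 to 3.03. No difference in *Ltc4s* was detectable at this depth, and without the filter, which it did not pass, its day 6 edgeR adjusted p was 0.841. Of its exon bases 25.8% overlap *Gm26542*, and the strand setting of the counting is not given in the sources used here, so reads there may have been set aside as ambiguous. Intervals and limits of this kind cover counting error only, since no molecular identifiers are described for these libraries.

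Of the 9 genes, 5 passed the filter on low counts at day 6, and each of the 5 was above its minimum of 0.522 CPM in both libraries labelled 4-OHT as well. Of these 5, 1 (*Dclk1*) was called lower and 0 higher at day 6, where 0.235% of the 14066 genes tested were called lower and 2.27% higher. All 5 log2 fold changes were negative, as were 51.8% of all, with a median of -1.33 against -0.01 over all genes tested. An unadjusted p under 0.05 with a negative value was found for 4 of the 5 and for 2.79% of all genes, and with a positive value for 0 of the 5 and 7.54% of all. Both libraries labelled 4-OHT lay below both EtOH libraries for 4 of the 5, all but *Sh2d6*, and for 18.4% of all genes. Over both days 1 of 5 (*Pou2f3*) was called lower and 0 higher, against 0.718% and 3.67% of 14060 genes, and the median was -1.20. All 5 were negative there (51.4% of all genes), and all 5 had an unadjusted p under 0.05 (5.79% of all were lower at that p, and 10.3% higher). As the 9 genes were chosen with earlier results of these data known, the shares over all genes describe the set and do not test it. These libraries are bulk samples, in which fewer tuft cells and less RNA per tuft cell cannot be told apart.

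**Figure D2:**
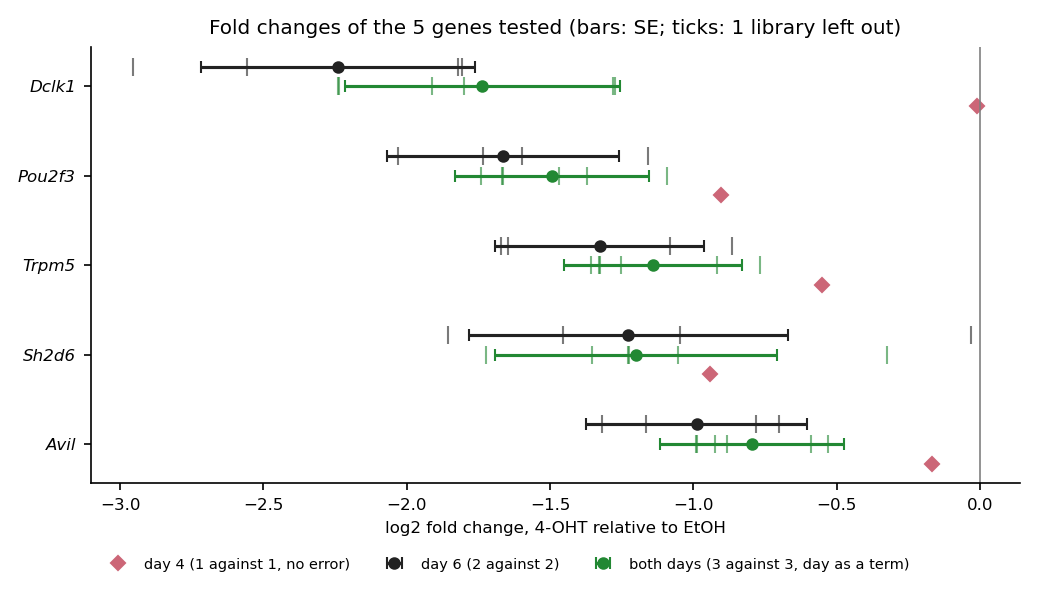
Log2 fold change of the 5 genes tested, libraries labelled 4-OHT relative to EtOH, for the 4 day 6 libraries (black), all 6 libraries with day as a term (green) and the day 4 pair (red diamonds, no error). Bars are SE and ticks the values with 1 library left out. All points lie at or below 0, *Dclk1* runs from -2.24 at day 6 to -0.01 at day 4, and the *Sh2d6* tick near 0 is the day 6 value without EtOH replicate 1.

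The day 4 pair was then set against day 6. All 5 genes tested had a negative day 4 value, as had 50% of the 14060 genes, with log2 values of -0.94 (*Sh2d6*), -0.90 (*Pou2f3*), -0.55 (*Trpm5*), -0.17 (*Avil*) and -0.01 (*Dclk1*). None was 2-fold lower or higher, while 2.19% and 5.59% of all genes were. A single library per label leaves replicate error unknown, and the exact 95% interval of the ratio of counts, for counting error only, excluded 1 for *Pou2f3* alone (ratio 0.525, 0.301 to 0.884). For *Dclk1* the day 4 ratio was 1.01 (0.518 to 1.95), while the ratio of the summed day 6 counts was 0.21 (0.147 to 0.294), an interval that likewise leaves out the spread between libraries.

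The difference between days was tested as an interaction, which assumes that the day 4 libraries vary like those of day 6. It called 0 of 14060 genes by edgeR, and 228 had an unadjusted p under 0.05 (0.917% lower and 0.704% higher). Of the 5 genes 1 was lower at that p and 0 higher, and all 5 differences were negative, as were 50.2% of all. DESeq2 called 6 and limma-voom 0, and none of these was among the 9 genes. For *Dclk1* the day 6 value was lower than the day 4 value by a log2 difference of -2.23 (SE 1.00; edgeR unadjusted p 0.0478, adjusted p 1.00), and DESeq2 gave an unadjusted p of 0.0572. For the other 4 the difference was -0.81 (*Avil*, SE 0.78), -0.75 (*Trpm5*, SE 0.72), -0.71 (*Pou2f3*, SE 0.82) and -0.16 (*Sh2d6*, SE 1.39), each about the size of its SE or smaller. A change of the day 6 difference with time was therefore not shown for any of the 5 genes tested. In simulated counts with 1 noise level for all genes, this edgeR interaction test recovered 1% of differences of size 1 on the log2 scale. It recovered 60% of those of size 2, so that 0 calls say little about the smaller size. The simulated differences were placed in genes of any level above 1 CPM. These shares therefore do not give the recovery for genes as low as the 5 tested here.

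The EtOH libraries themselves differed between days. Both day 6 EtOH libraries were above the day 4 EtOH library for all 5 genes, which was so for 32.4% of all genes. *Trpm5* had 11.9 and 6.84 CPM at day 6 and 3.64 CPM at day 4, *Pou2f3* 7.73 and 4.23 against 2.77, and *Dclk1* 6.25 and 3.77 against 1.23. *Avil* had 4.82 and 3.71 against 1.85 and *Sh2d6* 6.35 and 1.80 against 1.28. In the libraries labelled 4-OHT, *Trpm5* had 4.47 and 3.0 CPM at day 6 and 2.44 at day 4, *Pou2f3* 1.81 and 1.98 against 1.43, and *Dclk1* 1.44 and 0.643 against 1.22. There *Avil* had 1.72 and 2.62 against 1.63 and *Sh2d6* 2.0 and 1.5 against 0.611, so that *Dclk1* was the gene whose day 6 levels lay on both sides of day 4. EtOH replicate 1 of day 6 was the highest of the 6 libraries for all 5 genes, as it was for 26.3% of all genes, and it was above EtOH replicate 2 for 50.5%. Differences between days were not tested beyond the interaction, and days cannot be told apart from other ways in which the day 4 pair was handled. Unmapped reads made up 10.32% (EtOH) and 8.32% (labelled 4-OHT) at day 4, against 5.01% to 6.74% at day 6. Reads in no gene were 6.19% and 6.7% against 2.63% to 3.76%. Genes with any count numbered 26521 and 24195 against 19522 to 20622. The bearing of these differences on the tuft cell genes was not tested.

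To compare levels between genes, counts were divided by exon length and scaled to an equal total in each library (TPM). By the median of this per-length level over the 6 libraries, *Sh2d6* (4.09) came first, followed by *Pou2f3* (3.14), *Avil* (2.75), *Trpm5* (2.66), *Ltc4s* (0.484) and *Dclk1* (0.259). The first 4 overlapped widely between libraries, with *Sh2d6* at 1.60 to 14.8 and *Trpm5* at 1.69 to 7.35, so their order is not firm. *Dclk1* ran from 0.119 to 1.13 and lay below these 4 in every library. The order of *Ltc4s* and *Dclk1* is not firm either, since *Ltc4s* has 0 to 7 counts and was below *Dclk1* in both day 6 EtOH libraries (0.605 and 0.241 against 1.13 and 0.744). The place of *Dclk1* depends on its length of 21795 exon bases, which joins the exons of all its transcripts.

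The other genes of the tuft cell programme were taken from 4 lists with 44 genes, of which 27 were abundant enough to test at day 6. Of the 27, 2 were called lower and 0 higher by edgeR, against 0.235% and 2.27% of all genes tested. A negative log2 fold change was found for 19 of the 27 and 51.8% of all, and the median of the 27 was -0.20. Over both days 25 were tested, with 1 lower and 1 higher (0.718% and 3.67% of all genes) and a median of -0.03. At day 4, 8 of these 25 were negative, as were 50% of all, with a median of 0.33. Of the 27 tested at day 6, 4 (*Plcb2*, *Irag2*, *Bmx* and *Pou2af2*) were under the filter's minimum in at least 1 library labelled 4-OHT. The first 3 of these passed through the EtOH libraries, where they were high, so the counts over the 27 are a description only. Both day 6 calls come from these genes. Chemosensing genes came first. *Plcb2*, the phospholipase C of the taste cascade, had 31 and 25 counts with EtOH and 2 and 1 in the libraries labelled 4-OHT at day 6, and 4 against 3 at day 4. *Plcb2* fell at day 6 by 4.26 on the log2 scale (SE 0.77; edgeR adjusted p 0.0143). It passed the filter only through the EtOH libraries, and the call was lost without EtOH replicate 1 (0.131) or 2 (0.0578). *Itpr3*, a calcium release channel that other epithelial cells also express, stood at 340 to 503 CPM and had a day 6 value of -0.08 (SE 0.20). *Tas1r3* had 0.57 (SE 0.53), and since 99.2% of its exon bases overlap *Dvl1*, its 14 to 35 counts are uncertain. *Gnat3*, the taste G protein subunit, and *Sucnr1*, the succinate receptor, were at 0 in all 6 libraries, and *Gng13* had 1 count in 1 library. Overlap with another gene also touches 43.8% of the exon bases of *Gng13*. Among genes named further on, it touches 43.5% of *Matk*, 40.4% of *Il17rb*, 21.4% of *Pou2af3*, 18.9% of *Sox4* and 13.0% of *Sox9*.

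Among 6 genes of lipid mediators and acetylcholine, 3 were tested and 0 passed at day 6 by edgeR. At an unadjusted edgeR p under 0.05, 1 was lower and 1 higher, against 2.79% and 7.54% of all genes. *Pla2g4a*, a phospholipase A2, had a log2 value of -0.54 (SE 0.18), *Ptges*, a prostaglandin E synthase, 1.44 (SE 0.48), and *Hpgds*, the prostaglandin D synthase, -0.14 (SE 0.47). Of the genes not tested, *Chat*, the acetylcholine-making enzyme, had 10 and 2 counts with EtOH and 0 and 0 in the libraries labelled 4-OHT at day 6. *Ptgs1* had 10 and 4 against 7 and 3 there, and *Alox5* 9 and 1 against 4 and 7. At day 4 *Alox5* went the other way from *Chat*, with 5 counts (EtOH) against 48 (labelled 4-OHT). Of 9 transcription genes 7 were tested and 0 passed by edgeR. All 7 values were negative, as were 51.8% of all, and 1 had an unadjusted edgeR p under 0.05 (2.79% of all genes were lower at that p). The 7 included *Sox4* (-0.27, SE 0.16), *Sox9* (-0.27, SE 0.19) and *Atoh1* (-0.26, SE 0.24), which progenitors and other secretory cells also express. *Pou2af2* (-0.66, SE 0.73) and *Pou2af3* (-0.58, SE 0.34), coactivators of Pou2f3, did not pass either.

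Of 19 signalling and surface genes 14 were tested. At day 6, 1 was called lower, 0 higher and 8 were negative, against 0.235%, 2.27% and 51.8% of all genes. *Irag2*, also known as *Lrmp*, an endoplasmic reticulum protein of tuft cells and lymphocytes, had 58 and 49 counts with EtOH against 7 and 10 at day 6, and 22 against 7 at day 4. *Irag2* fell by 2.79 on the log2 scale at day 6 (SE 0.52; edgeR adjusted p 0.0205) and by 2.43 over both days (SE 0.44; 0.0125). *Irag2* too passed the day 6 filter only through the EtOH libraries, and its day 6 call was lost without EtOH replicate 1 (0.182), EtOH replicate 2 (0.085) or replicate 1 labelled 4-OHT (0.0505). The call over both days was lost without EtOH replicate 1 (0.0514), replicate 1 (0.0822) or 2 (0.0629) labelled 4-OHT of day 6, or the day term (0.055). *Hebp1*, a haem-binding protein, rose over both days by 0.77 (SE 0.18; edgeR adjusted p 0.0485). This was lost under limma-voom (0.0542), the older edgeR fit (0.0511), without the day term (0.0741) and without each of the 6 libraries in turn (0.0526 to 0.198). *Krt18* (0.11), *Cd24a* (-0.20) and *Il13ra1* (0.52), the most abundant of the list and not restricted to tuft cells, did not pass. *Bmx*, *Sh2d7*, *Vav1* and *Matk*, named after their values were seen, ran from -2.31 to -1.33 without passing, as did *Spib* of the transcription list at -1.28. The other tested genes of the signalling list, also named after their values were seen, did not pass either. They were *Kctd12* (-0.08), *Il17rb* (-0.04), *Ptpn6* (0.13), *Il4ra* (0.34) and *Plcg2* (0.50), and the median of the list was -0.06.

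**Figure D3:**
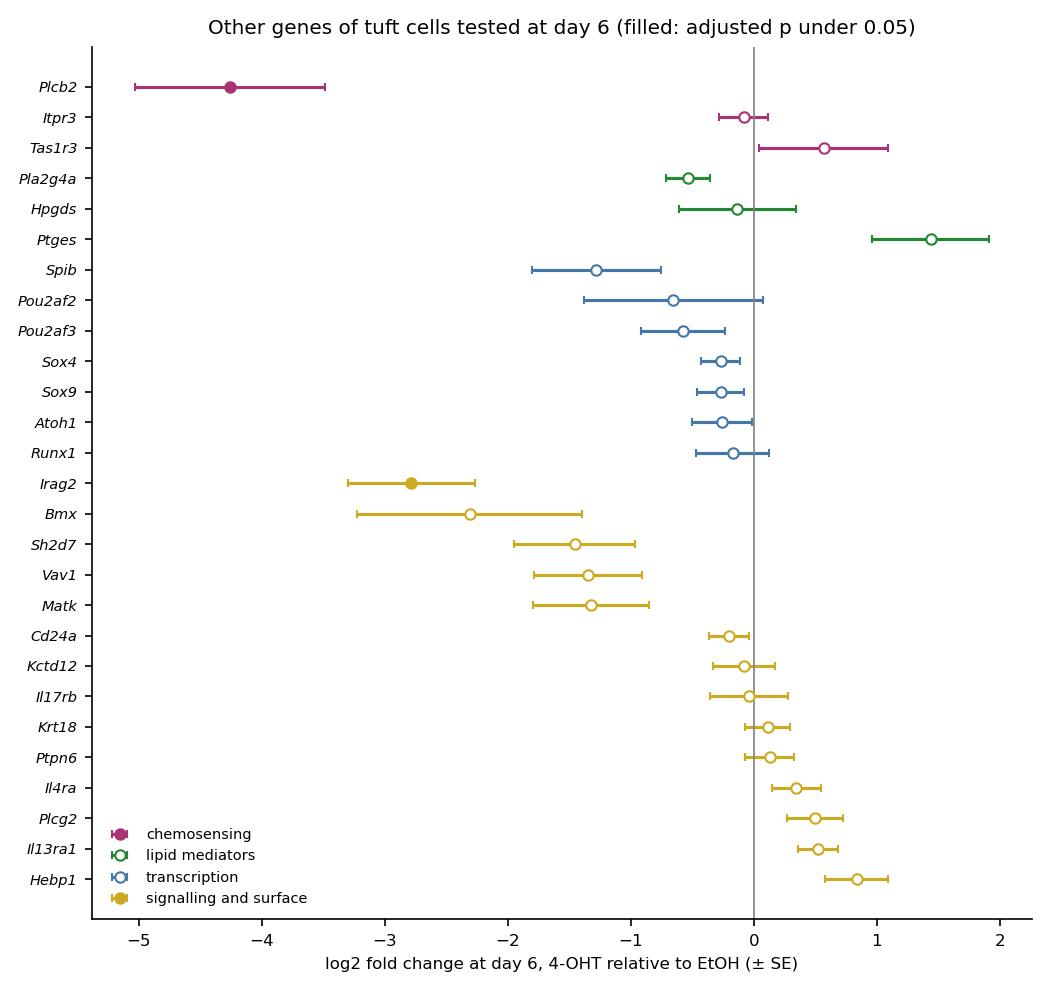
Day 6 log2 fold change (± SE) of the 27 further tuft cell genes that could be tested, libraries labelled 4-OHT relative to EtOH, coloured by list. Filled points, *Plcb2* and *Irag2*, have an adjusted p under 0.05, and broadly expressed genes such as *Krt18* and *Itpr3* lie near 0.

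Markers of other cells were read beside these values. Enterocyte markers (12 genes, led by *Vil1* and *Slc5a1*) summed to 1358 and 1404 CPM with EtOH at day 6. In the day 6 libraries labelled 4-OHT they summed to 3725 and 3142 CPM. Of the 12, 9 rose by edgeR, as did 2.27% of all genes. Stem cell markers (14 genes, led by *Slc12a2* and *Olfm4*) summed to 6487 and 6288 against 4508 and 4046 CPM. Of them 1 was lower (*Olfm4*, -1.27, edgeR adjusted p 0.0312) and 0 higher, against 0.235% and 2.27% of all genes. *Olfm4* alone had 3304 and 2244 against 1320 and 984 CPM (TMM-scaled) and thus weighed heavily in the sum. Of the 14 log2 fold changes 9 were negative, as were 51.8% of all, with a median of -0.13. The summed levels of both lists thus differed between the same day 6 groups as the tuft cell genes, and their part in those values was not tested. Paneth markers, led by *Lyz1* and *Defa24*, summed to 2994 and 2157 against 5450 and 2136 CPM. Enteroendocrine markers, led by *Chgb* and *Chga*, summed to 501 and 425 against 777 and 398 CPM. Both lists overlapped between the day 6 groups, with 0 calls either way by edgeR. At an unadjusted edgeR p under 0.05, 4 Paneth and 1 enteroendocrine marker were higher and 0 lower, against 7.54% and 2.79% of all genes. Both sums were lowest in the day 4 EtOH library, at 440 and 66.2 CPM. Goblet markers (*Fcgbp*, *Tff3* and 7 more) summed to 2076 to 3508 CPM. Of these 2 were higher and 0 lower at day 6, against 2.27% and 0.235% of all genes. Handling stress genes (*Fos*, *Egr1* and others) summed to 1385 to 2617 CPM, highest in the day 4 EtOH library. The 16 immune markers summed to 196 to 246 CPM, led by *Lcp1* and *Kit*, with 2 at 0 in all libraries. Of 5 tested, 1 was higher and 0 lower at day 6, against the same 2.27% and 0.235% of all genes. The defining leukocyte gene *Ptprc* had 0 counts in all 4 day 6 libraries and 1 and 2 at day 4. Stromal and endothelial markers (10 genes, with *Pecam1* and *Col1a1* on top) summed to at most 1.96 CPM.

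**Figure D4:**
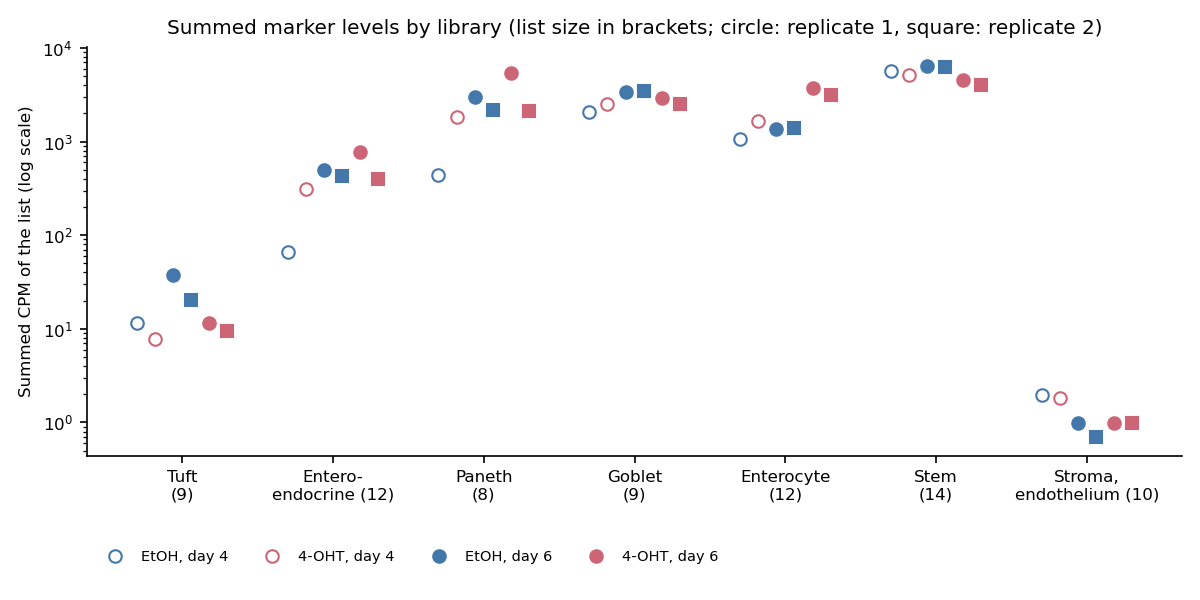
Summed CPM of 7 marker lists in each library, on a log scale. Tuft cell genes lie between 7.81 and 37.2 CPM with both day 6 EtOH libraries on top, enterocyte markers are highest in the 2 day 6 libraries labelled 4-OHT, and Paneth and enteroendocrine markers are lowest in the day 4 EtOH library.

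The genes whose levels most resembled those of *Dclk1* over the 6 libraries were *Obi1* (Pearson r of log2 CPM 0.989), *Mthfd2l* (0.986), *Acap3* (0.983), *Ints3* (0.982) and *Secisbp2* (0.981), out of 12706 genes whose mean reached 1 CPM. None is a member of the set. *Trpm5* (0.931) stood at rank 50, *Pou2f3* (0.881) at 150, *Avil* (0.774) at 660 and *Sh2d6* (0.731) at 959. These are descriptions over 6 libraries that share treatment and day, with *Dclk1* at 12 to 118 counts. Among the 5 genes themselves, r ran from 0.731 (*Dclk1* with *Sh2d6*) to 0.942 (*Trpm5* with *Pou2f3*).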

How the data were processed

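Counts of 6 libraries were used, grouped by the treatment and day in their labels. The authors deposited whole-number read counts per gene, not normalized, per the file headers. The first 4 lines of each table count reads without a usable gene (unmapped, mapped to several places, in no gene, or in several genes). They held 19.3% to 26.7% of entries and stayed out of library sizes and tests, so genes with overlapping neighbours or close copies are undercounted. STAR and the mm39 build are named in the submitters' processing notes. Versions, annotation release and strand setting are not given in the sources used here. Libraries were made from poly(A) RNA with random priming, per the labels' protocols. Symbols, positions and exon lengths came from GENCODE M39 on GRCm39, which is mm39 (56323 of 56884 identifiers, 99.96% of counts). Promoter windows came from RefSeq (GRCm38.p6), placed on GRCm39 by exact match.

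Tests were quasi-likelihood F tests in edgeR 4.0.16 (R 4.3.3, TMM scaling, filterByExpr with a minimum count of 10, Benjamini-Hochberg adjustment over all genes tested, threshold 0.05). An SE is the size of the log2 fold change over the square root of its F value. The day 4 pair was not tested, and its log2 values used a prior count of 2. The main edgeR fits of day 6, of both days and of the interaction were tested on simulated data, and the alternatives were not. Alternatives were median-of-ratios scaling, 2 other filters, DESeq2 1.42.0, voom of limma 3.58.1, a replicate block, 4 groups, no day term, another prior count, leaving out each library and, added after the data were seen, edgeR's older quasi-likelihood fit. Named were all 9 genes, called genes and the 3 most abundant of each further tuft cell list, the top 2 of the other lists, and the 5 genes most like *Dclk1*. *Gnat3*, *Sucnr1*, *Gng13*, *Chat*, *Ptgs1*, *Alox5*, *Pou2af2*, *Pou2af3* and the uncalled signalling genes and *Spib* so marked were named after their values were seen. A gene of the signalling list is not reported here. The 9 genes and the lists were chosen with earlier results of these data known.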

Additional observations from a re-analysis of the deposited data

How the results depend on the processing

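The number of the 9 genes called lower at day 6 (1, *Dclk1*) was 3 with DESeq2 and 3 with a replicate block, 0 with limma-voom, 0 with edgeR's older quasi-likelihood fit, which was added after the data were seen, and 0 to 2 with 1 library left out. Over both days it (1, *Pou2f3*) was 2 with DESeq2, 0 with limma-voom, 0 without a day term and 0 to 3 with 1 library left out. Without either day 4 library the gene called over both days was *Dclk1* and not *Pou2f3*. The day 4 library that remains is then taken up by the day term, so these fits repeat the day 6 comparison. In the interaction the number of the 9 genes called stayed at 0 under every alternative run. With a replicate block at day 6, *Dclk1*, *Pou2f3* and *Trpm5* passed, as did *Hebp1* (0.0184 against 0.173), and 839 of 14066 genes were called against 353 without it. In the interaction the block called 42 genes against 0. The labels do not say that the numbers pair the libraries, and the correlation of replicate differences between the 2 treatments was 0.266 over 14066 genes. The count of all genes called was 502 with DESeq2 and 99 to 409 with 1 library left out at day 6, and over both days it was 617, and 361 without a day term. At day 4 the number of the 5 genes tested that were at least 2-fold lower was 0, and 1 (*Sh2d6*) with a prior count of 0.5. *Gfi1b*, with 5 counts (EtOH) against 0, was not among the genes counted there. Every alternative kept a negative sign for the 5 genes at day 6 and over both days, the smallest being -0.03 for *Sh2d6* without EtOH replicate 1. The *Sh2d6* interaction turned from -0.16 to 0.0435 with limma-voom, and ran from -0.81 to 1.03 with 1 library left out, reaching 0.009 without replicate 2 labelled 4-OHT. That of *Hebp1*, 0.22, turned to -0.0188 without the same library and ran up to 0.425 with others left out. The causes were not tested. Leaving out a library at day 6 leaves 1 library in an arm, which is assumed to vary like the other group. An interaction without a day 4 library could not be fitted. The number of genes that reached 10 counts in any 1 library was 5, and 7 reached 5 counts in any 1 library. The 4 genes whose day 6 groups did not overlap were 4 on unscaled CPM too, and the summed level moved by less than 1 SD under other scalings or without *Dclk1*. *Gfi1b* and *Ltc4s*, at 0 to 8 counts, were tested only without the filter, and neither was called.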
